A study of Homo sapiens with 15 samples.

Results

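TXNIP, its alpha-arrestin relatives ARRDC4, ARRDC2 and ARRDC3, and the transcription factor genes MLX, MLXIP and MLXIPL were followed in bronchial epithelial cells exposed to fine particulate matter (PM2.5). These 7 genes, of 58219 in the count table, were taken by gene symbol. The set was chosen by measured values, because TXNIP and ARRDC4 were among the largest increases after daily exposure, so the daily comparison is described here for all 7 genes and not tested. Messenger RNA of BEAS-2B, a single established line of immortalized human bronchial epithelial cells, was sequenced in 15 libraries of 5 conditions, with 3 independently performed experiments per condition. All cells were grown on collagen-coated plastic in serum-free bronchial epithelial growth medium. In the 24-h protocol, cells received vehicle control, 1 µg/cm2 of PM2.5 or 30 µg/cm2 of PM2.5 once for 24 h. In the repeated protocol, cells were plated at a lower density, were washed every day and then received either vehicle control or PM2.5 at 1 µg/cm2 until collection on day 7. The particles were extracted in water from filters exposed to winter air in Beijing, and no other genotype, agent or cell type was used.

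Alpha-arrestins are adaptor proteins that bring ubiquitin ligases of the NEDD4 family to membrane proteins and thereby move these proteins off the cell surface. TXNIP, or thioredoxin-interacting protein, also binds thioredoxin and lowers glucose uptake by promoting the internalization of the glucose transporter GLUT1, which SLC2A1 encodes. The glucose sensors MondoA, encoded by MLXIP, and ChREBP, encoded by MLXIPL, work as heterodimers with MLX. When glucose-6-phosphate and related sugars accumulate, these pairs bind carbohydrate response elements, which are paired E-box-like motifs in promoters. TXNIP and ARRDC4 are the best known targets of MondoA, and their transcripts turn over quickly. By holding back both glucose uptake and thioredoxin, TXNIP links the sugar supply of a cell to its redox state.

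The libraries held 21460981 to 34724765 gene counts (median 29243177), and the floor of 3 counts corresponded to at most 0.140 CPM, far below every member. Levels are given as CPM, the counts of a gene relative to the library total, after scaling by the trimmed mean of M-values (TMM). The libraries of 24-h experiment 2 stood apart from experiments 1 and 3, and the daily-treated library of repeated experiment 3 stood apart from its replicates. Some of the results that rest on them are also given without them, and for the others the values of each experiment are given where they matter. All 7 bronchial epithelial markers (KRT5, KRT7, KRT8, KRT18, KRT19, CDH1 and EPCAM) were detected, and the summed level of the 3 immune markers was at most 0.231 CPM and that of the 2 endothelial markers at most 0.246 CPM. The summed level of the epithelial markers was 3649 to 4164 CPM in 24-h controls and 1559 to 2622 CPM after 30 µg/cm2. There 5 of the 7 were called lower (edgeR adjusted p below 0.05 and log2 fold-change of 0.6 or more in size), against 4.24% of all genes. Their sum was 2948 to 3515 CPM in controls of the repeated protocol and 1934 to 2208 CPM after daily exposure. KRT5 was called lower there, against 0.125% of all genes. The 5 mesenchymal markers were detected too, at 494 to 787 CPM in sum in 24-h controls and 348 to 567 CPM after 30 µg/cm2. Of these, 1 was called lower after 30 µg/cm2, against the same 4.24% of all genes. The mesenchymal sum was 296 to 353 CPM in repeated controls and 206 to 291 CPM after daily exposure. The part of these shifts in the results below was not tested, and in bulk RNA fewer cells of a type and less RNA per cell cannot be told apart.

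The promoters of TXNIP and ARRDC4 are shown because these are the members whose levels differed most across the libraries. Sequences are from RefSeq (GRCh38.p14), written 5′ to 3′ on the strand of the gene, and run from 250 bases before to 50 bases after a start site. Capitals mark every match, on either strand, of CCAAT, of the E-box CACGTG and of a direct repeat, which is CACGNG followed after 5 bases by a second CACGNG.
TXNIP promoter (chr1:145996530-145996829, minus strand): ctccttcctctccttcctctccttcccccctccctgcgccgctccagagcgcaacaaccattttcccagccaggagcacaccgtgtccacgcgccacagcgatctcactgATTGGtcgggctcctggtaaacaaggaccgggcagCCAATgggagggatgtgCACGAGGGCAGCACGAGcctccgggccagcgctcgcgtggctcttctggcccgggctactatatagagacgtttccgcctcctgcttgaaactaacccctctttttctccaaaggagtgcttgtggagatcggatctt
ARRDC4 promoter (chr15:97960453-97960752, plus strand): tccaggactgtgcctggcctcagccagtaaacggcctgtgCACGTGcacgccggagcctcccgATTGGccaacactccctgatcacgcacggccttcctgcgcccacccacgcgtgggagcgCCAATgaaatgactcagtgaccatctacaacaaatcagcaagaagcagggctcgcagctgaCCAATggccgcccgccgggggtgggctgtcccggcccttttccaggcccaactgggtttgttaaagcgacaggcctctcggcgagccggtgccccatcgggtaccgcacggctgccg
The TXNIP promoter held 1 direct repeat, with its first base 88 bases before the start site, and 2 CCAAT matches. This repeat was found in 20 of 35116 RefSeq promoters of the same length (0.0570%). The ARRDC4 promoter held 1 CACGTG, with its first base 210 bases before the start site, and 3 CCAAT matches. Among the other members, MLX held a CACGTG 50 bases before its start, and CCAAT was found in promoters of all members but MLXIPL. CACGTG occurred in 7.26% and CCAAT in 34.6% of all promoters searched. These shares are per promoter, while CCAAT is counted here by gene for 7 members with 10 promoters, so the values are not directly comparable. The matches shown did not overlap each other, and a match describes letters and not a bound site. A consensus of the carbohydrate response element (ChoRE), as long as the direct repeat but with other fixed bases, was searched too. It matched 0.0883% of promoters and none of the 10 promoters of the 7 members. The direct repeat of TXNIP itself consists of paired E-box-like motifs, the form described above for carbohydrate response elements. The missing match thus concerns the fixed bases of this consensus and does not show that TXNIP lacks such an element. Whether the repeat acts as such an element was not tested. A second TXNIP start site, further into the gene, held no match.

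TXNIP lies on chromosome 1 (chr1:145992435-145996600, GRCh38, minus strand) and ARRDC4 on chromosome 15 (chr15:97960698-97973838, plus strand). In controls of the repeated protocol, TXNIP stood at 25.7, 24.8 and 13.96 CPM in experiments 1, 2 and 3. In daily-treated cells of the same experiments, it stood at 119, 114 and 355 CPM. Every treated library was above every control, by 4.63-fold in experiment 1, 4.59-fold in experiment 2 and 25.4-fold in experiment 3. The means were 21.5 ± 6.51 and 196 ± 138 CPM (SD, n = 3), so most of the spread after treatment came from 1 library.

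ARRDC4, the alpha-arrestin closest to TXNIP in its known response to glucose, stood at 5.09, 5.40 and 4.39 CPM in controls of the repeated protocol and at 13.97, 14.99 and 35.4 CPM after daily exposure. The treated libraries were 2.74, 2.78 and 8.05 times their own controls. As for TXNIP, experiment 3 held both the lowest control and the highest treated level.

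The fitted log2 fold-change (edgeR quasi-likelihood model, ± SE) after daily exposure was 3.19 ± 0.389 for TXNIP and 2.11 ± 0.343 for ARRDC4. These were the second and the third largest of 18 called increases. Genes were called where the adjusted p was below 0.05 and the log2 fold-change was 0.6 or more in size, which held for 0.227% of 17599 genes, 0.102% as higher and 0.125% as lower. These are the values for which the genes were picked, and nothing is read from their rank. Without the daily-treated library of experiment 3, the log2 fold-changes were 2.44 for TXNIP and 1.54 for ARRDC4. Without both libraries of experiment 3, they were 2.20 and 1.46. Of the other members, daily-treated libraries lay below their controls without overlap for ARRDC2, ARRDC3 and MLX and above them for MLXIPL. Libraries of the 2 groups did not overlap for 42.9% of all genes in this comparison.

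**Figure D1:**
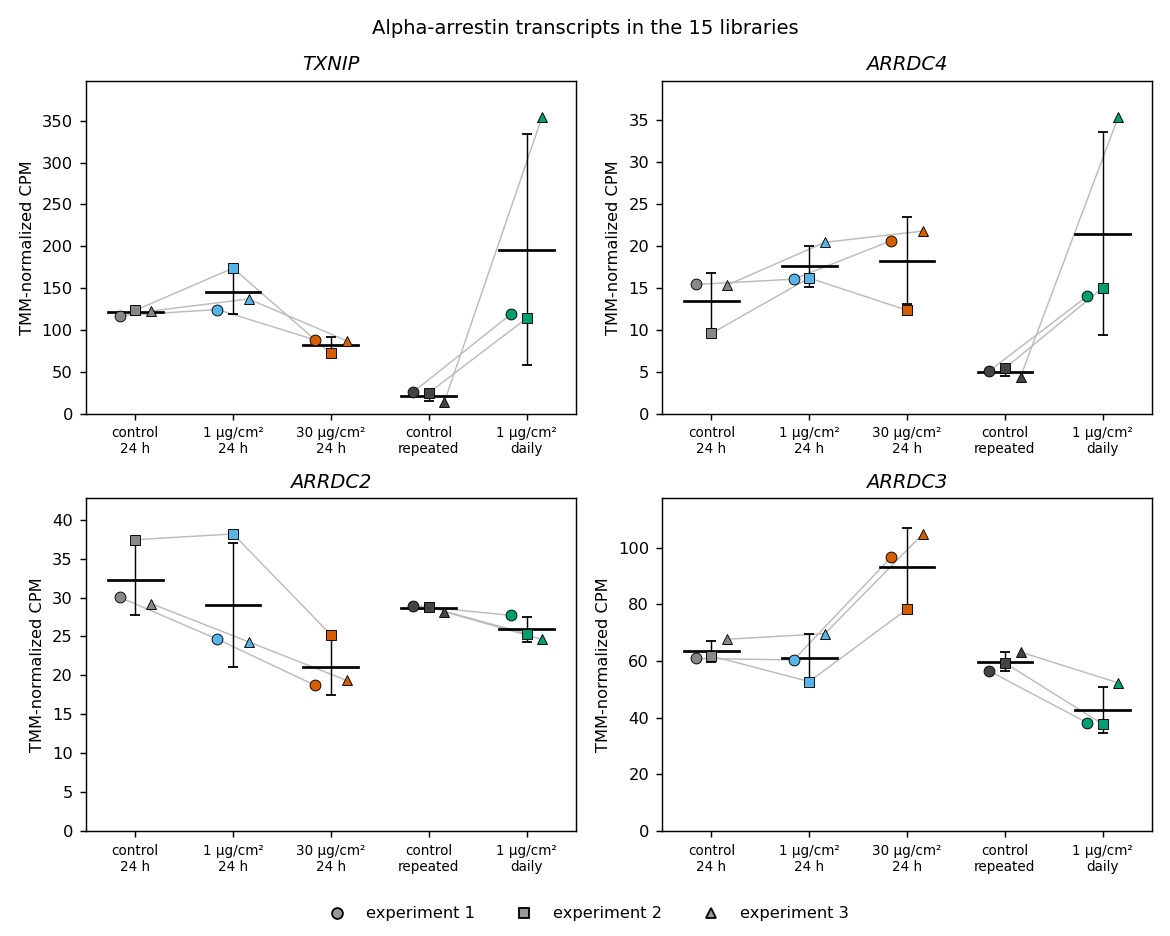
TMM-normalized CPM (linear axis from 0) of TXNIP, ARRDC4, ARRDC2 and ARRDC3 in each of the 15 libraries by condition. Symbols mark experiments 1 to 3 of a protocol, grey lines join libraries of one experiment, black bars are means and whiskers SD (n = 3); controls of the repeated protocol hold the lowest TXNIP (13.96 to 25.7) and ARRDC4 (4.39 to 5.40) levels of all conditions.

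TXNIP and ARRDC4 were lower in controls of the repeated protocol than in those of the 24-h protocol. In 24-h controls, TXNIP stood at 117, 123 and 123 CPM, 5.64-fold above controls of the repeated protocol by the fit. The daily-treated libraries of experiments 1 and 2, at 119 and 114 CPM, were thus close to 24-h controls, and only that of experiment 3 exceeded all 24-h libraries. ARRDC4 stood at 15.4, 9.56 and 15.3 CPM in 24-h controls, and again the daily-treated libraries of experiments 1 and 2 lay within this range. From the 24-h to the repeated protocol, control TXNIP differed by a log2 fold-change of -2.50 ± 0.379 (SE) and control ARRDC4 by -1.44 ± 0.339, without a test, because the same repeated controls entered the comparison that picked both genes.

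The other 5 members were tested between the controls, and none was called, where 21.9% of all genes were, 11.1% as higher and 10.8% as lower. Among these 5, libraries of the controls did not overlap for ARRDC2, MLX and MLXIP but did for ARRDC3 and MLXIPL, where 52.3% of all genes did not overlap. TXNIP and ARRDC4 did not overlap either, but the same repeated controls had entered the comparison that picked them. ARRDC3 stood at 60.8, 61.7 and 67.6 CPM in 24-h controls and at 56.4, 59.3 and 63.1 CPM in repeated controls, a log2 fold-change of -0.09 (95% CI -0.42 to 0.24). MLX, the shared partner of both glucose sensors, was higher in every repeated control (77.0, 73.9 and 79.4 CPM) than in any 24-h control (65.0, 56.7 and 72.8 CPM), with an edgeR adjusted p of 0.103. For MLXIPL, the log2 fold-change was 0.05 (adjusted p = 0.948) with all libraries and 0.82 (edgeR adjusted p = 0.000184) without the libraries of 24-h experiment 2, where 31% of all genes were called. The protocols differed in plating density, washing and day of collection, and these cannot be told apart.

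At 24 h, TXNIP was above controls at the low and below them at the high concentration, but neither difference passed the test. After 1 µg/cm2, TXNIP stood at 124, 174 and 137 CPM, above the 3 controls (log2 fold-change 0.26, 95% CI -0.50 to 1.03, edgeR adjusted p = 1). After 30 µg/cm2, it stood at 88.1, 71.9 and 87.1 CPM, below all controls (log2 fold-change -0.56, 95% CI -1.32 to 0.21, edgeR adjusted p = 0.389). In each of the 3 experiments the highest level was found after 1 µg/cm2 and the lowest after 30 µg/cm2. The difference between the concentrations was -0.82 (SE 0.359, edgeR adjusted p = 0.176), and it remained short of the threshold with experiments as blocks (-0.81, adjusted p = 0.0880). Intervals, SEs and p-values of the fit to all libraries rest on 1 spread per gene, shared with the repeated protocol. There, daily-treated TXNIP stood at 119, 114 and 355 CPM, while SDs within conditions at 24 h were 3.48 to 25.7 CPM. The missed thresholds thus do not measure the spread at 24 h alone. The same applies to ARRDC4 below. With only the libraries compared in the fit, 0 members were called in any of the 3 comparisons. Of all genes, that fit called 360 between 30 µg/cm2 and control, 2 between 1 µg/cm2 and control and 149 between the concentrations. Against control, TXNIP was short of the fold-change threshold of 0.6 at both concentrations in the fit to all libraries. The missing calls there thus say little about its spread at 24 h. The groups did not overlap for TXNIP in any of these 3 comparisons, where 22.8% of all genes did not overlap between 30 µg/cm2 and control, 4.44% between 1 µg/cm2 and control and 21.6% between the concentrations.

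ARRDC4 was on the same side of its controls as TXNIP after 1 µg/cm2, again without overlap, but not after 30 µg/cm2. It stood at 16.01, 16.2 and 20.4 CPM after 1 µg/cm2 and at 20.6, 12.3 and 21.7 CPM after 30 µg/cm2, in each experiment above its own control. Neither difference passed the test, at log2 fold-changes of 0.38 (95% CI -0.32 to 1.09, edgeR adjusted p = 1) and 0.44 (95% CI -0.27 to 1.14, edgeR adjusted p = 0.468). As a result, the ratio of TXNIP to ARRDC4 CPM was 4.27, 5.84 and 4.01 after 30 µg/cm2, against 7.61, 12.9 and 8.01 in 24-h controls. The same ratio was 5.04, 4.59 and 3.18 in repeated controls and 8.51, 7.59 and 10.03 after daily exposure, higher than in the controls in all 3 experiments. After 1 µg/cm2 at 24 h it was 7.76, 10.8 and 6.71, lower than in the controls in 2 of 3 experiments.

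**Figure D2:**
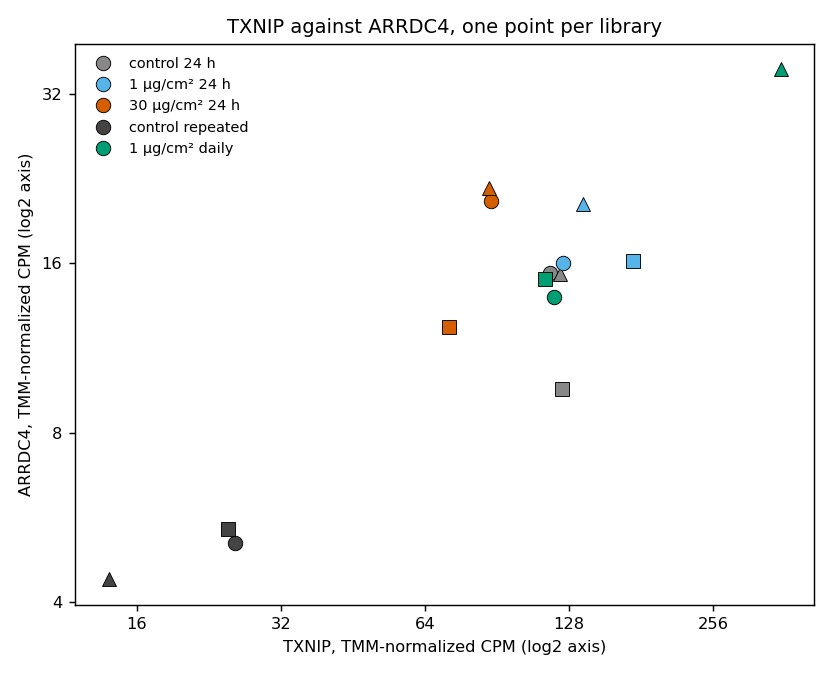
TXNIP (x axis) against ARRDC4 (y axis), both in TMM-normalized CPM on log2 axes, with 1 point per library, colored by condition and shaped by experiment as circle, square and triangle for experiments 1, 2 and 3. Repeated controls lie at the lower left, the daily-treated library of experiment 3 at the upper right, and the 9 libraries of the 24-h protocol form no line.

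ARRDC2 and ARRDC3, which act on receptor trafficking and are not known as strong glucose targets, lay on opposite sides of their controls after the high concentration. ARRDC2 (chr19:18001132-18014102, plus strand) was 30.0, 37.4 and 29.2 CPM in 24-h controls and 18.7, 25.2 and 19.3 CPM after 30 µg/cm2. It fell 1.53-fold (log2 fold-change -0.61 ± 0.178 SE, edgeR adjusted p = 0.0439), with every treated library below every control. ARRDC2 was the 1 member of 7 called in this comparison, where 8.07% of all genes were called, 3.82% as higher and 4.24% as lower. With experiments as blocks its adjusted p was 0.000321. The call was lost when any 1 control or the treated library of experiment 1 or 3 was left out (log2 fold-change -0.49 to -0.69, adjusted p 0.0615 to 0.176), with no filter on low counts (adjusted p = 0.0519) and with only the 6 libraries compared (adjusted p = 0.138).

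After 1 µg/cm2, ARRDC2 stood at 24.7, 38.2 and 24.3 CPM and was not called (log2 fold-change -0.15, edgeR adjusted p = 1). After daily exposure it was 27.7, 25.4 and 24.6 CPM against 29.0, 28.8 and 28.2 CPM in controls. Over all 15 libraries its highest level was 2.04 times its lowest.

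ARRDC3 (chr5:91368724-91383359, minus strand), which helps to remove integrin beta-4 from the cell surface, was 96.7, 78.3 and 105 CPM after 30 µg/cm2, above all controls. Its log2 fold-change was 0.56 ± 0.153 (SE, edgeR adjusted p = 0.0337), which passed the threshold on p but not that of 0.6 on the fold-change. Against 1 µg/cm2 (60.3, 52.7 and 69.6 CPM), the log2 fold-change of 0.61 passed both (edgeR adjusted p = 0.0215). ARRDC3 was the only 1 of 7 members called between the concentrations, where 7.84% of all genes were called, 3.62% as higher and 4.22% as lower.

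That call was lost without the 1 µg/cm2 library of experiment 1 or 2 or the 30 µg/cm2 library of experiment 1 or 3 (log2 fold-change 0.51 to 0.58, adjusted p 0.0612 to 0.109). Without all libraries of 24-h experiment 2, ARRDC3 was called after 30 µg/cm2 against control as well (log2 fold-change 0.63, edgeR adjusted p = 0.00111), where 19.1% of all genes were called. After daily exposure, ARRDC3 lay on the other side of its controls, at 38.2, 37.7 and 52.2 CPM against 56.4, 59.3 and 63.1 CPM (log2 fold-change -0.48 ± 0.154 SE). ARRDC2 overlaps an exon of another gene by 442 bases and ARRDC3 overlaps ARRDC3-AS1 by 145 bases, both on the other strand, and the strand setting of the counting is not given in the sources used here.

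**Figure D3:**
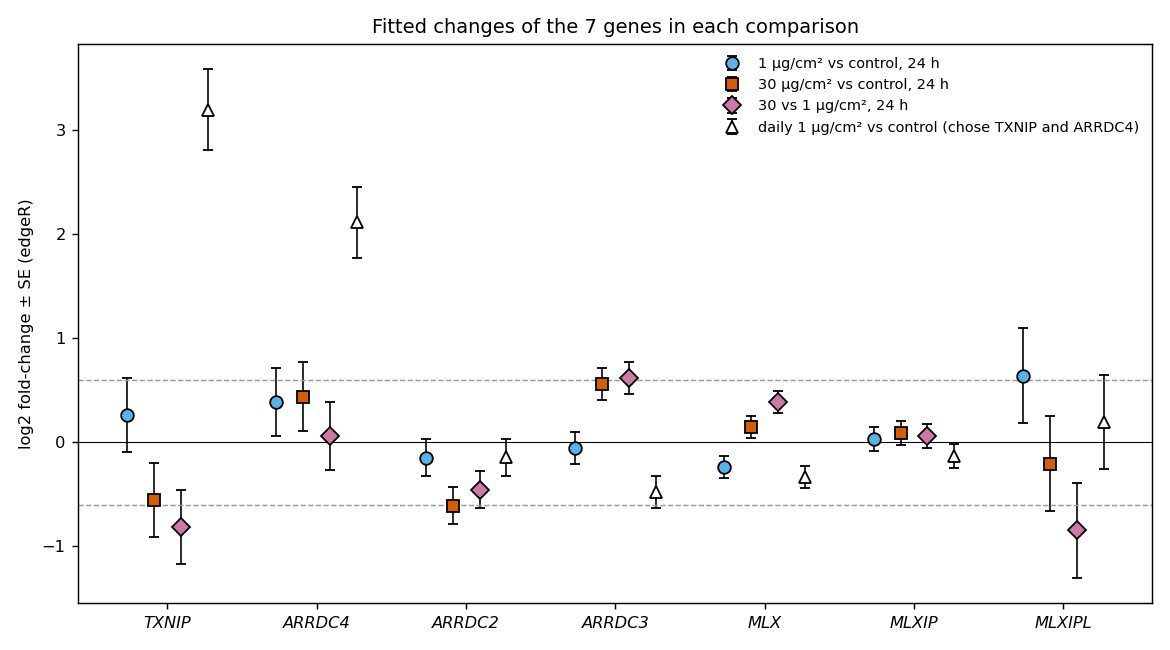
Fitted log2 fold-changes (y axis, edgeR, whiskers ± SE) of the 7 genes (x axis) in 4 comparisons, with dashed lines at the threshold of 0.6 in either direction. Open triangles are the daily comparison that picked TXNIP (3.19) and ARRDC4 (2.11) and carry no test; ARRDC2 at 30 µg/cm2 (-0.61) and ARRDC3 between concentrations (0.61) are the filled points that passed both thresholds.

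Of the genes for the glucose-sensing factors, MLX and MLXIP varied little and MLXIPL varied widely. MLXIP (MondoA; chr12:122078722-122147347, plus strand) ranged from 23.5 to 36.5 CPM over all 15 libraries, and its highest level was 1.55 times its lowest. In 24-h controls it was 33.4, 32.5 and 31.9 CPM, and after 30 µg/cm2 36.5, 35.2 and 32.3 CPM (log2 fold-change 0.09, 95% CI -0.16 to 0.34). After 1 µg/cm2 the log2 fold-change was 0.03 (95% CI -0.22 to 0.28), and both edgeR adjusted p-values were at least 0.700. In the repeated protocol it was 31.5, 31.0 and 29.0 CPM in controls and 29.8, 30.1 and 23.5 CPM after daily exposure, and the lowest value was in the same treated library that held the highest TXNIP.

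MLX (chr17:42567068-42573239, plus strand) was lowest after 1 µg/cm2. It stood at 52.6, 55.1 and 57.0 CPM there, at 70.6, 75.9 and 68.8 CPM after 30 µg/cm2, and at 65.0, 56.7 and 72.8 CPM in controls. Between the concentrations the libraries did not overlap, and the log2 fold-change of 0.39 ± 0.107 (SE) passed the threshold on p (edgeR adjusted p = 0.0349) but not that on the fold-change. After daily exposure it was 63.1, 62.0 and 57.5 CPM against 77.0, 73.9 and 79.4 CPM in controls, a log2 fold-change of -0.33 ± 0.107. MLX shares 770 exonic bases with PSMC3IP on the other strand.

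MLXIPL (ChREBP; chr7:73593194-73624543, minus strand) differed most between experiments. In 24-h controls it was 69.3, 193 and 51.6 CPM, after 1 µg/cm2 133, 263 and 91.5 CPM, and after 30 µg/cm2 76.2, 134 and 60.8 CPM. In every condition the library of experiment 2 was the highest, and in every experiment the library with 1 µg/cm2 was above both others.

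With no block, MLXIPL was not called after 1 µg/cm2 (log2 fold-change 0.64, edgeR adjusted p = 1) or between the concentrations (log2 fold-change -0.85, edgeR adjusted p = 0.277). With experiments as blocks, it was called in both, as higher after 1 µg/cm2 than in controls (log2 fold-change 0.73, edgeR adjusted p = 0.0184) and lower after 30 than after 1 µg/cm2 (-0.78, edgeR adjusted p = 0.000442). At these thresholds the blocked fit called 0.42% of all genes in the first comparison and 15.6% in the second. Without the libraries of experiment 2 both calls were also made, at 0.90 (adjusted p = 0.00274) and -0.73 (adjusted p = 0.00185), where 2.11% and 17.3% of all genes were called. Between 30 µg/cm2 and control, its log2 fold-change was -0.21 (95% CI -1.18 to 0.77) and turned to 0.17 without experiment 2. In the repeated protocol MLXIPL varied less, at 101, 113 and 109 CPM in controls and 117, 136 and 118 CPM after daily exposure.

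**Figure D4:**
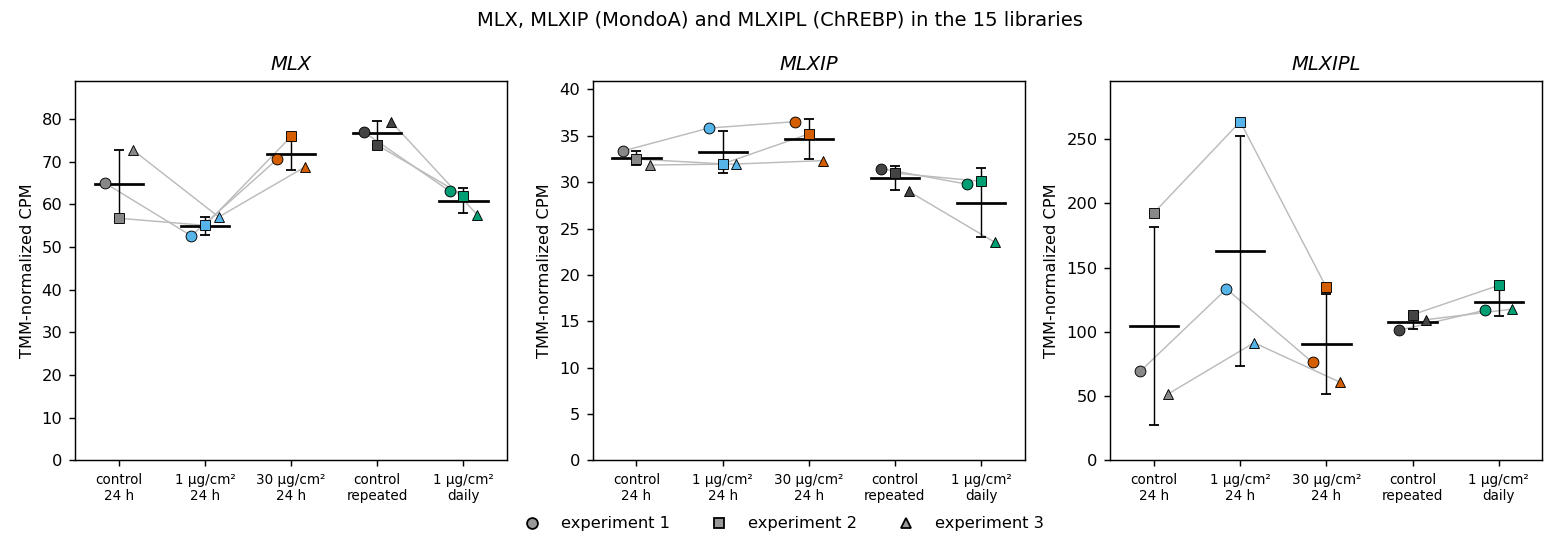
TMM-normalized CPM (linear axis from 0) of MLX, MLXIP and MLXIPL in the 15 libraries by condition, with symbols for experiments 1 to 3, grey lines joining libraries of one experiment, black bars for means and whiskers for SD (n = 3). MLXIP stays between 23.5 and 36.5, while MLXIPL is highest in 24-h experiment 2 in each condition and in each experiment is higher after 1 µg/cm2 than in control.

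Levels of the 7 genes were also compared per kilobase of exon, as means over 3 libraries. TXNIP had the highest mean in 24-h controls (33.4 CPM per kilobase), followed by MLXIPL (21.7), MLX (15.2), ARRDC3 (12.9), ARRDC2 (6.95), ARRDC4 (3.29) and MLXIP (2.34). MLXIPL, with 10.7 CPM per kilobase in 1 library and 40.0 in another, was not separated by its spread from TXNIP, MLX and ARRDC3. In 24-h control 2 it was above TXNIP, which stood at 34.1 CPM per kilobase. In controls of the repeated protocol TXNIP was number 5, at 5.92 CPM per kilobase, below ARRDC2 at 6.18, a difference smaller than the spread of TXNIP between libraries. After daily exposure it was highest again, at 54.0, and ARRDC4 went from 1.22 to 5.27, close to ARRDC2 at 5.58.

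Over the 15 libraries, log2 levels of TXNIP and ARRDC4 had a Pearson r of 0.901, and ARRDC4 was number 4 of 17598 genes in likeness to TXNIP. This similarity came from the repeated protocol (r = 0.992 over 6 libraries), and over the 9 libraries of the 24-h protocol r was -0.04. By Spearman's rho, at 0.625, ARRDC4 was number 342. The other genes of the 10 most alike to TXNIP were PNMA1 (r = 0.920), ENSG00000271781 (0.909), NFE2L2 (0.908), GPRIN1 (0.872), ZBED10P (0.868), MED6 (0.860), SCUBE3-AS1 (0.857), DUSP8 (0.851) and CSTF3 (0.851). PNMA1 ranged only from 46.3 to 66.8 CPM and NFE2L2, the gene of the oxidative stress regulator NRF2, from 125 to 198 CPM. For ARRDC4 the 10 were LYSMD4 (r = 0.902), TXNIP, TPMT (0.880), TRA2B (0.864), KLHL7 (0.862), ENSG00000224635 (0.859), ENSG00000271781 (0.857), NFE2L2 (0.841), TRMT61B (0.838) and ST20-AS1 (0.836). Both lists held ENSG00000271781 and NFE2L2. TXNIP and ARRDC4 were picked for their increase in the repeated protocol, so their likeness there, and the rank it carries, were largely fixed by that choice. Libraries also share their condition and experiment, so these values only describe the 15 libraries. Among members, MLX had the most negative value with TXNIP (r = -0.767), and ARRDC2, ARRDC3 and MLXIP were between -0.158 and -0.02.

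Of 57 other genes of the pathway in 8 lists, 54 were tested. After daily exposure 1 of the 54 was called, SLC2A1, the glucose transporter that TXNIP moves off the membrane, where 0.227% of all genes were called. SLC2A1 stood at 210.4, 206 and 243 CPM in controls of the repeated protocol and at 147, 139.5 and 123 CPM after daily exposure, lower in all 3 experiments and without overlap (log2 fold-change -0.69 ± 0.113 SE, edgeR adjusted p = 0.0302). Experiment 3, with the highest TXNIP, held the lowest SLC2A1. The call was lost when any 1 of the 6 libraries was left out (adjusted p 0.0973 to 0.246), with no filter on low counts (adjusted p = 0.0585) and without both libraries of experiment 3 (-0.54, adjusted p = 0.796), and was kept with experiments as blocks (adjusted p = 0.00270).

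SLC2A1, too, differed between the controls, in the opposite direction to TXNIP. It was 133, 129 and 134 CPM in 24-h controls, below all repeated controls (log2 fold-change 0.74, edgeR adjusted p = 0.000391). The daily-treated libraries, at 123 to 147 CPM, spanned the range of 24-h controls for SLC2A1. At 24 h SLC2A1 was not called after 1 µg/cm2 (log2 fold-change 0.06) or 30 µg/cm2 (0.17, edgeR adjusted p = 0.395).

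Of 11 tested genes ascribed to MondoA or ChREBP as glucose-responsive targets, none was called after daily exposure, and whether they differed from TXNIP and ARRDC4 was not tested. Their median log2 fold-change was -0.20, against 0.01 for all genes. With experiments as blocks, 5 of the 11 were called and all 5 were lower, where that fit called 2.79% of all genes as lower. These were HK2, which phosphorylates glucose, FASN, ACACA and SCD, which make fatty acids, and TKT of the pentose phosphate pathway, with log2 fold-changes of -0.63, -0.78, -0.93, -0.70 and -0.77, named here after their values were seen. With no block their edgeR adjusted p-values were 0.405, 0.291, 0.585, 0.370 and 0.134. Over all 54 listed genes, the blocked fit called 9 as lower and none as higher after daily exposure. Of all 17599 genes it called 773, of which 491 were lower, so few calls as higher could fall among 54 genes. HK2 stood at 48.0, 45.4 and 51.7 CPM in controls and 31.2, 30.2 and 32.1 CPM after daily exposure. KLF10, another MondoA target, was 34.7, 32.2 and 35.2 CPM in controls and 36.3, 36.4 and 65.9 CPM after daily exposure, higher without overlap and most so in experiment 3, but not called (log2 fold-change 0.44, edgeR adjusted p = 0.591). GPD1, named here after its values were seen, was also higher without overlap and not called, at 0.266, 0.868 and 0.722 CPM in controls and 0.940, 0.924 and 1.15 CPM after daily exposure. These levels rest on 7 to 27 counts in controls and 29 to 37 after daily exposure. Libraries of the 2 groups did not overlap for 42.9% of all genes in this comparison, so a lack of overlap was common.

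After 30 µg/cm2 at 24 h, 6 of the 54 genes were called, 1 higher and 5 lower, where 8.07% of all genes were called, so their share was near that of all genes. LDHA, which converts pyruvate to lactate, fell 2.36-fold, from 1229, 897 and 1415 CPM to 402, 667 and 429 CPM (log2 fold-change -1.24, edgeR adjusted p = 0.00205). ELOVL6, a fatty acid elongase, fell by 0.61 on the log2 scale (edgeR adjusted p = 0.0300), and by 0.59, below the threshold, with experiments as blocks. KLF10 was 125, 52.4 and 131 CPM against 59.2, 52.9 and 61.3 CPM in controls, so experiment 2 did not share the difference, and it was called only with experiments as blocks (log2 fold-change 0.76, edgeR adjusted p = 0.0170).

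In the MYC/MAX network, to which MLX is linked through shared partners, the repressor genes MXD1 and MXD4 went in opposite directions. MXD1 rose from 10.2, 7.91 and 10.3 CPM to 31.6, 11.3 and 32.3 CPM (log2 fold-change 1.40, edgeR adjusted p = 0.00911), with the smallest change in experiment 2. MXD4, which can pair with MLX, fell from 119.97, 121 and 125 CPM to 46.5, 97.2 and 47.1 CPM (log2 fold-change -0.94, edgeR adjusted p = 0.0154). Both calls were lost without the treated library of experiment 1 or 3 (adjusted p 0.0513 to 0.0832). MAX was even, at a log2 fold-change of 0.06, and MYC was not called at 0.31.

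Among cargo genes, ITGB4, which encodes integrin beta-4, fell by 0.74 on the log2 scale (edgeR adjusted p = 0.00266), and SLC2A4, at 1.69 to 2.76 CPM in controls, fell by 1.42 (edgeR adjusted p = 0.0156). TXN, which encodes thioredoxin, was 637, 1255 and 672 CPM against 527, 495 and 636 CPM in controls. It was higher without overlap but not called (log2 fold-change 0.63, edgeR adjusted p = 0.0878). The lowest treated level was barely above the highest control, the difference was largest in experiment 2, and 22.8% of all genes did not overlap here. No gene among the other arrestins, the TXNIP partners and regulators, the NEDD4-family ligases, the makers and users of glucose-6-phosphate or the glucocorticoid-response genes was called in this comparison. With experiments as blocks, 3 of the 54 were called as higher and 8 as lower, where that fit called 15.2% of all genes. Of the 6 calls without the block, those of ITGB4 and LDHA were kept whichever library was left out.

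Between the concentrations, 1 of the 54 was called as higher after 30 µg/cm2, MXD1 at 1.23, and 6 as lower. The 6 were LDHA (log2 fold-change -0.77), MXD4 (-1.17), SLC2A4 (-1.34), ITGB4 (-0.72) and the glucocorticoid-response genes KLF9 (-0.90) and ZBTB16 (-1.28). Of the 7 calls, which compare with 7.84% of all genes called, those of ITGB4, KLF9 and MXD4 were kept whichever library was left out. No listed gene was called after 1 µg/cm2 against control, where 0.0625% of all genes were called.

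Between the controls of the 2 protocols, 19 of the 54 were called, 9 higher and 10 lower in the repeated protocol, where 21.9% of all genes were called. The lipogenic genes FASN (log2 fold-change -1.77), ELOVL6 (-1.60) and SCD (-1.14), the glycolytic genes LDHA (-1.48) and GPI (-0.61), TXN (-1.02), DDIT4 (-0.67), USP5 (-1.03), HECW1 (-2.28) and MXD4 (-1.62) were lower. INSR, the insulin receptor gene (1.34), SLC2A1 (0.74), MYCL (1.37), MXI1 (1.17), MXD1 (0.88), RGS16 (1.09), PRKAA2, which encodes a catalytic subunit of AMP-activated kinase (1.00), KLF9 (0.69) and ZBTB16 (1.06) were higher. Of the 19 calls, 13 were kept whichever library was left out. HECW1 and RGS16 were not among these and stood low. HECW1 held 9 to 19 counts in 24-h controls and 0 to 5 in repeated controls. RGS16 held 14 to 18 and 32 to 43.

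The response to daily 1 µg/cm2 was set against the response to 1 µg/cm2 at 24 h in one model for the listed genes. No gene was called, listed or other (0% of 17599 genes in edgeR's quasi-likelihood test), while 1245 had an unadjusted p below 0.05 and DESeq2 called 66. With experiments as blocks 4 listed genes were called, SLC2A1, TKT, KLF9 and ZBTB16, where that fit called 1.03% of all genes. SLC2A1 differed by a log2 fold-change of -0.74 (edgeR adjusted p = 0.351, and 0.0440 with blocks). For TXNIP the responses were 3.19 after daily exposure and 0.26 at 24 h, and for ARRDC4 2.11 and 0.38, given side by side and not tested.

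**Figure D5:**
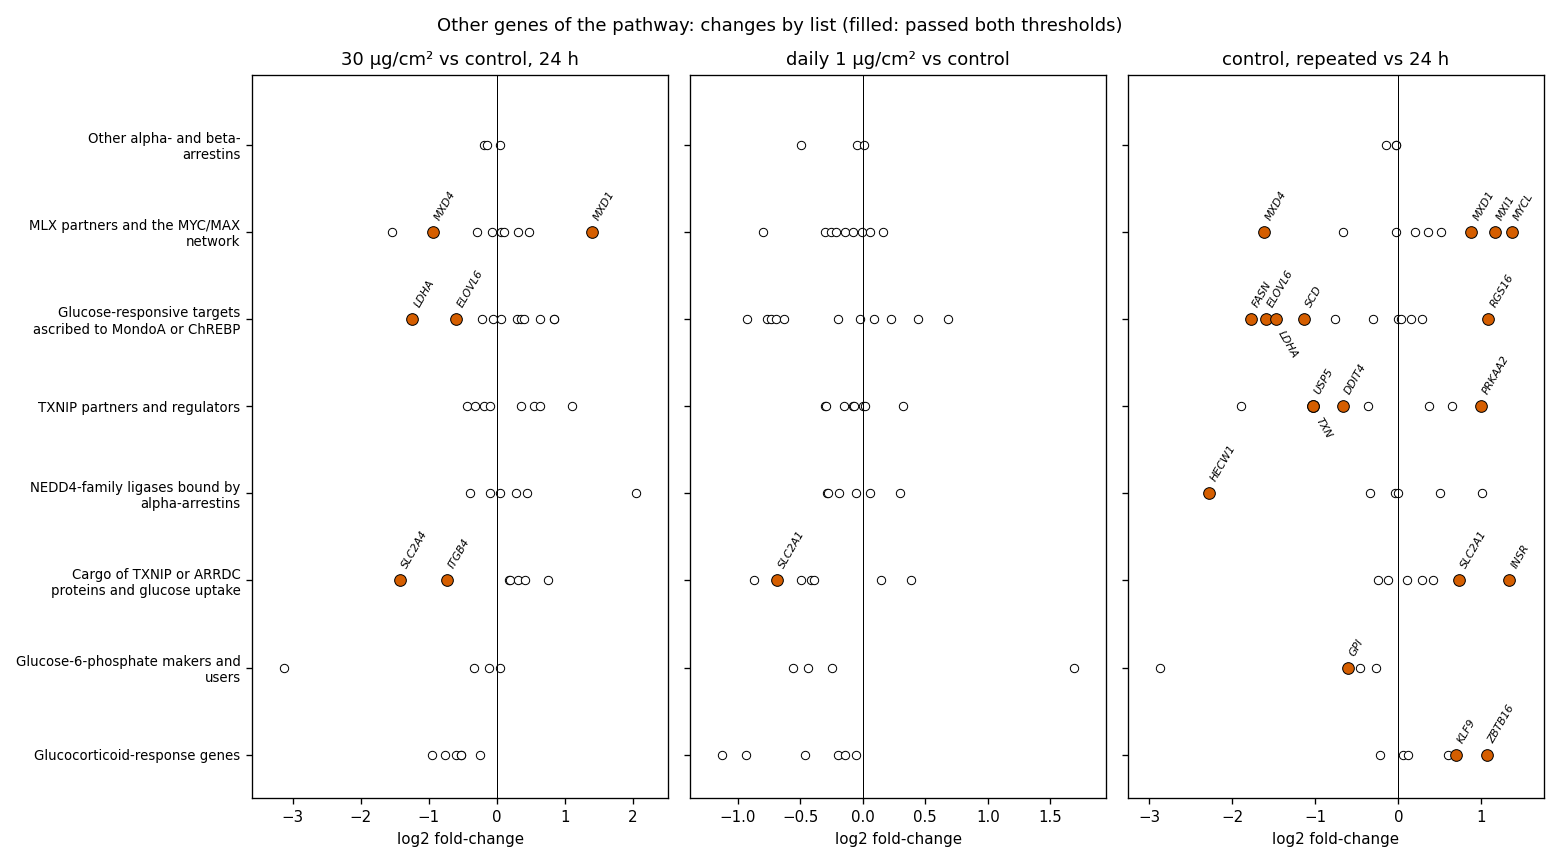
Fitted log2 fold-changes (x axes, edgeR) of the 54 other pathway genes, with 1 row per list and 1 panel per comparison; filled points with names passed both thresholds. SLC2A1 is the 1 filled point after daily exposure, at -0.69, against 6 after 30 µg/cm2 and 19 between the controls of the 2 protocols.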

How the data were processed

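The authors deposited raw counts per gene for all 15 libraries, from single-end reads aligned with STAR and counted with featureCounts. The submitters' processing notes name hg19, the study's methods name GRCh38, and the coordinates in the table match GRCh38. The annotation and the strand setting are not given in the sources used here. The methods give 6 daily exposures and the labels 7. Gene names came from the reference annotation.

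Counts were scaled by TMM and filtered with filterByExpr in edgeR 4.0.16 (R 4.3.3), which kept 17599 genes and all 7 members. A quasi-likelihood model in its earlier mode, with 1 mean per condition, was fitted to all libraries, with Benjamini-Hochberg adjustment over all genes. A gene was called when its adjusted p was below 0.05 and its log2 fold-change was 0.6 or more in size. Intervals and SEs are from this fit. The floor of 3 counts covers counting error only.

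The series record states that the last number of a label marks an experimental batch. Deviations from group means correlated between libraries of one number, at a mean r of 0.529 at 24 h and a weaker 0.154 in the repeated protocol. The number within its protocol was therefore also fitted as a replicate block. For different numbers mean r was -0.23 and -0.08, which the subtraction of group means largely fixes, so it adds no evidence. Alternatives included DESeq2 1.42.0, RLE factors, other filters and left-out libraries. The code of the fit was run on simulated counts with the same spread for every gene and no differences between experiments. That run does not show how the fit handles the differences between experiments found here. Named genes are the members, listed pathway genes that were called, 6 listed genes that define the question of a list (SLC2A1, TXN, MYC, MAX, KLF10 and HK2), and the 10 genes most alike by Pearson r. A pair of listed genes is not reported here. Members and lists were chosen with earlier results of these data known. In the fit to all libraries, the p-values rest on 1 spread per gene, shared by both protocols. This spread comes from 3 experiments per condition of 1 cell line and is not that of a single comparison.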

Additional observations from a re-analysis of the deposited data

Results flagged for a closer look

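TXNIP went in opposite directions in 2 pairs of comparisons, each time with no overlap between libraries of the treated and control groups. The log2 fold-change was 3.19 after daily 1 µg/cm2 and -0.56 after 30 µg/cm2 at 24 h. At 24 h it was 0.26 after 1 µg/cm2 and -0.56 after 30 µg/cm2. ARRDC3 went the other way in the first pair, at -0.48 after daily exposure and 0.56 after 30 µg/cm2 at 24 h. For the pair of concentrations at 24 h, the difference itself was tested and did not pass (log2 fold-change -0.82, edgeR adjusted p = 0.176, and 0.0880 with experiments as blocks). For the other 2 pairs the difference was not tested, and their daily values belong to the comparison on which the genes were picked.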

How the results depend on the processing

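Of 960 values other than counts of calls, 849 kept their direction and their side of the thresholds, 87 lost the call, 9 gained one and 13 changed sign under alternatives, and the remaining 2, the rank of ARRDC4 among genes alike to TXNIP and the order of levels per length, moved. TXNIP and ARRDC4 stayed higher after daily exposure in every setting tried. Both were picked on this comparison, so refits of the same libraries add no support for their increase. Without the libraries of 24-h experiment 2, called genes were 3430 after 30 µg/cm2, 378 after 1 µg/cm2, 3113 between concentrations, 1083 after daily exposure and 1766 for the difference of responses, and members called were 2, 1 and 2 in the first 3 and 1 between controls. With the replicate block they were 2681, 74, 2737, 773 and 181, with 1 member called after 1 µg/cm2 and 2 between concentrations. With only the libraries compared they were 360, 2, 149, 1029 and 1, with 0 members called after 30 µg/cm2 and 0 between concentrations. With no filter they were 38 after 1 µg/cm2, 92 after daily exposure and 20 for the difference of responses, with 0 members called after 30 µg/cm2 and 2 between concentrations. DESeq2 called 39, 251 and 66 in the same 3. With a filter at 1 CPM, 0 members were called between concentrations. Without both libraries of repeated experiment 3, an alternative chosen after seeing the data, 1 gene was called after daily exposure and 1 for the difference of responses.

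With 1 library left out, called genes ranged from 794 to 2706 after 30 µg/cm2, from 4 to 45 after 1 µg/cm2, from 711 to 2715 between concentrations, from 0 (without the control of repeated experiment 1 or 3) to 11 after daily exposure, from 0 to 63 for the difference of responses and from 2832 to 4071 between controls. Members called ranged from 0 to 2 after 30 µg/cm2 and from 0 to 2 between concentrations. Signs changed for differences that were not called. With 1 library left out, the log2 fold-change between concentrations ranged from -0.0900 to 0.259 for ARRDC4 and from -0.00082 to 0.110 for MLXIP. After 1 µg/cm2 it ranged from -0.166 to 0.0381 for ARRDC3, and was 0.0270 without 24-h experiment 2, and from -0.0099 to 0.0586 for MLXIP. For MLXIPL it ranged from -0.618 to 0.579 after 30 µg/cm2, and was 0.169 without 24-h experiment 2, and from -0.315 to 0.817 between controls. TPM in place of CPM per kilobase kept 33 of 35 places in the order of levels. Apart from MLXIPL, the replicate block changed no call of a member. The cause of these changes was not tested. Depth did not limit the members, which all stood above the floor of 3 counts in every library.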
